A study of Mus musculus with 71 samples.

Results

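The genes described here encode the core of Polycomb repressive complex 2 (PRC2), and were the 6 genes Ezh1, Ezh2, Eed, Suz12, Rbbp4 and Rbbp7, chosen by symbol from the 24222 genes in the count tables. All 6 were found, and all 6 passed the filter on low counts, which left 14145 genes. RNA had been sequenced from 9 libraries of mouse embryonic stem (ES) cells, 3 per group. The rescue group is labelled EZH2 rescue, described as cells in which wild-type EZH2 was put back. The dKO group is labelled Ezh1/Ezh2 dKO, a loss of both genes, and the WT group as wild type. Every group had the C57BL/6 strain label and grew on gelatin in 2i, the inhibitor medium for naive pluripotency. The labels do not say whether a group is 1 clone, which exons were deleted, what drives the introduced EZH2, whether the rescue cells were made from the dKO line, or whether replicates are separate cultures.

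PRC2 places methyl groups on lysine 27 of histone H3, the mark through which developmental genes are kept silent. Ezh1 and Ezh2 are its alternative catalytic subunits, and neither is active without Eed and Suz12. Eed reads the methylated histone and stimulates the enzyme, Suz12 is the scaffold that holds the complex together and on which accessory subunits assemble, and Rbbp4 and Rbbp7 are closely related histone-binding WD40 proteins. The Rbbp pair also belongs to the NuRD and Sin3 deacetylase complexes and, by member, to the chromatin assembly factor CAF-1, the Hat1 acetyltransferase, NURF and MuvB. ES cells can be kept without PRC2 activity, although their differentiation is then disturbed.

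Library totals were 12457622 to 36009529 counts, the lowest in dKO replicate 1 and the highest in rescue replicate 1. Levels are given in CPM as edgeR defines it, which sets a gene's count against its library's total after TMM scaling. The 12 ES cell markers summed to 8925 to 8990 CPM in rescue, 6483 to 6632 CPM in dKO and 7737 to 7957 CPM in WT, so the labelled cell type was borne out by its markers in each group. Within the dKO group replicate 3 stood apart from replicates 1 and 2 for several members, as given below. All p-values rest on the spread among these libraries, which may be technical, and in bulk RNA fewer cells with a transcript cannot be told apart from less transcript per cell.

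The 6 genes lie at 6 separate places on 5 chromosomes, Ezh1 and Suz12 both on chromosome 11. RefSeq promoter windows of GRCm38.p6, running from 250 bases before to 50 after the start, were found for all 6 and held 17 to 41 CG pairs, against a median of 7 over 32817 windows. More CG pairs than in the Eed window were in 29.7% of windows, and more than in the Suz12 window in 3.03%. The upstream bases of 4 members are shown because they form 2 contrasts. Eed and Suz12 differed in direction between dKO and WT, and Rbbp4 and Rbbp7 are close relatives that differed in the size of change. Capitals mark the 5-letter word CCAAT, or its reverse complement, and 4 words of the kind that E2F cell cycle factors bind (word 1 is TTGGCGC, word 2 is TTCCCGC, word 3 is TTGCCGC and word 4 is TTCGCGC, on both strands).
Eed, chr7:89980977-89981226, minus strand: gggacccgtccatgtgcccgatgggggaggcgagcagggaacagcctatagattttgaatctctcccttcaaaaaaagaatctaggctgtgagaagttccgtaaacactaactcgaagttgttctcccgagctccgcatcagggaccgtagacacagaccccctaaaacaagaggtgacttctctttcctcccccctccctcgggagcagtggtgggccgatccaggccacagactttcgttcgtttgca
Suz12, chr11:79992856-79993105, plus strand: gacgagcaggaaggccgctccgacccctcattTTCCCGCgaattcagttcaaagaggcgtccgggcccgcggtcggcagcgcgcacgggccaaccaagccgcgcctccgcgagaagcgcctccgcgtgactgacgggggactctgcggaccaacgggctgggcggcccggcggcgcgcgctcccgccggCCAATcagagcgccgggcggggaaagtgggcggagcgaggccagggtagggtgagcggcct
Rbbp4, chr4:129335371-129335620, minus strand: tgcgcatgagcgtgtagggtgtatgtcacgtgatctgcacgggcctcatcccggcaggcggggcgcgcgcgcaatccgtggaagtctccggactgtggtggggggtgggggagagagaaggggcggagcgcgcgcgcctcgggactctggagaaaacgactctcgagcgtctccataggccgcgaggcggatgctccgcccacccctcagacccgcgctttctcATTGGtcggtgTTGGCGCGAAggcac
Rbbp7, chrX:162760122-162760371, plus strand: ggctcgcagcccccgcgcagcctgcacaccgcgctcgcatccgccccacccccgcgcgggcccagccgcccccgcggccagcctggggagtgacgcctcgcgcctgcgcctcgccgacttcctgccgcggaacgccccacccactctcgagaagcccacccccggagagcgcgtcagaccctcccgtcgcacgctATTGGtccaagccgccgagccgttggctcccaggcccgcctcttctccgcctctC
An E2F-type word stood in the Suz12 window at -218 to -212, in the Rbbp4 window as 2 overlapping matches between -15 and -6, and in the Ezh2 window at 5 to 11 after the start, with positions counted from the table's start as 1 and no 0. For Ezh2, on the minus strand, that start (47595030 on chromosome 6) lies inside the annotated gene, which ends at 47595270, so the upstream part of its window may itself be transcribed and is not shown. Such a word is in 9.57% of all windows, which were not matched to the members for CG content or RNA level. CCAAT stood in the windows of Ezh2, Eed, Suz12, Rbbp4 and Rbbp7, and in 37.4% of all windows. It was found 3 times for Ezh2. The Eed match lies at 26 to 30 after the start, beyond the bases shown. Rbbp7 has 2 matches, of which the one at -1 to 4 crosses the start, so only its first letter is shown, as the capital that ends the sequence. Neither kind of word was in the Ezh1 window. These matches are descriptions of the letters and were not tested as sites.

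Ezh1 RNA was nearly lost in the dKO cells and in the rescue cells alike. Its level was 2.89, 2.33 and 3.41 CPM in rescue, 2.33, 1.83 and 1.80 CPM in dKO, and 53.3, 48.4 and 47.9 CPM in WT. These are 50 to 101 counts per rescue library, 31 to 45 per dKO library and 775 to 1038 per WT library. Each rescue and dKO library lay far below each WT library, while rescue replicate 2 and dKO replicate 1 were at the same level. Ezh1 fell in dKO against WT by 4.68 on the log2 scale (standard error 0.138), a level 96.1% lower, with edgeR Benjamini-Hochberg adjusted p = 2.35e-10. In rescue against WT it fell by 4.11 (SE 0.126, adjusted p = 2.07e-09). Rescue against dKO gave a rise of 0.57 (SE 0.167, adjusted p = 0.00856), although the libraries of these groups overlap. A low Ezh1 level is thus shared by dKO and rescue, while the label EZH2 rescue names only Ezh2 and does not say from which line these cells came.

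Ezh2, the catalytic subunit that dominates in dividing cells, had its highest level in the rescue cells and its lowest in the dKO cells. It stood at 555, 576 and 549 CPM in rescue, 192, 191 and 214 CPM in dKO, and 308, 313 and 310 CPM in WT. The groups did not overlap, and the WT libraries had a coefficient of variation of 0.962%. Ezh2 fell in dKO against WT by 0.64 (SE 0.0576, adjusted p = 1.4e-06). It rose by 0.85 in rescue against WT (SE 0.0573, adjusted p = 4.51e-07) and by 1.49 in rescue against dKO (SE 0.0583, adjusted p = 1.61e-09). The dKO cells thus kept 64.1% of the mean WT level of reads assigned to Ezh2. Counts per gene do not show whether a deleted exon is missing from these reads, nor do they separate introduced EZH2 transcripts from the native ones.

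**Figure D1:**
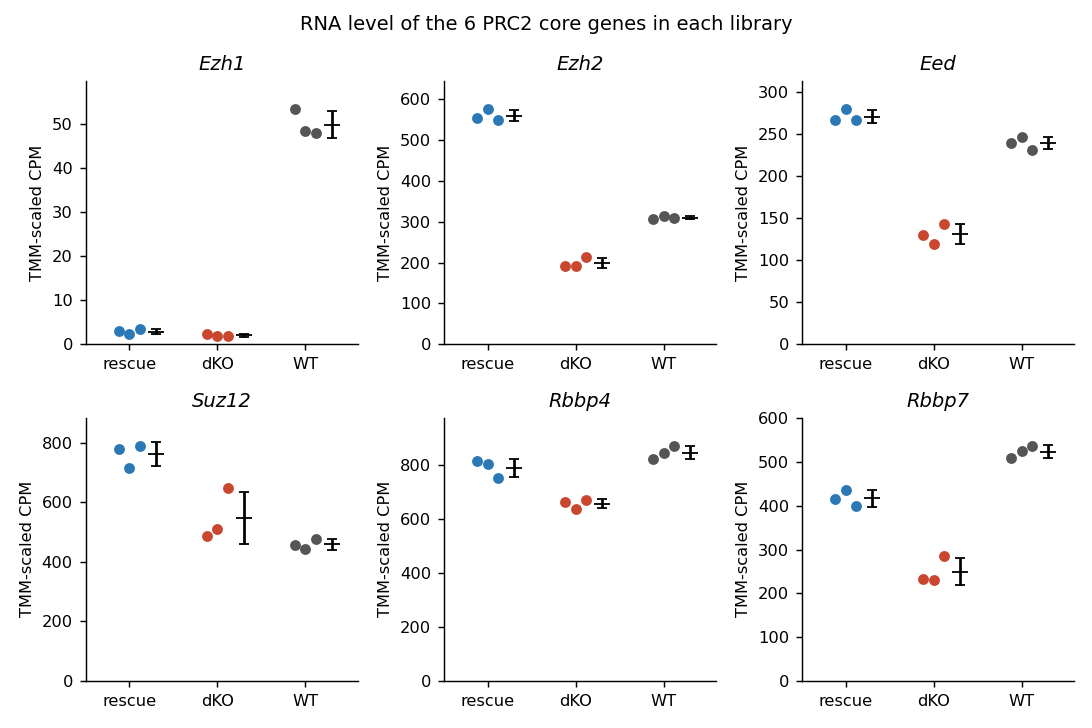
RNA level (TMM-scaled CPM, each axis from 0) of the 6 genes in every library, with 3 points each for rescue, dKO and WT from left to right and a black bar for the mean ± SD (n = 3). Ezh1 is near 0 in rescue and dKO, Ezh2 is highest in rescue, and dKO replicate 3, the rightmost dKO point, is the highest dKO library for Ezh2, Eed, Suz12, Rbbp4 and Rbbp7.

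Eed, the subunit that reads the mark, was lower by nearly as much as Rbbp7 in the dKO cells. It measured 266, 279 and 266 CPM in rescue, 130, 119 and 143 CPM in dKO, and 240, 246 and 231 CPM in WT. All dKO libraries lay below all others, and the rescue libraries lay just above those of WT without overlap. Eed fell in dKO against WT by 0.87 (SE 0.0676, edgeR adjusted p = 4.13e-07) and rose by 1.05 in rescue against dKO (SE 0.0675, adjusted p = 7.57e-08). The rise in rescue against WT was 0.18 (SE 0.0664, 95% interval 0.03 to 0.32, adjusted p = 0.0392). Leaving out any 1 of the rescue or WT libraries left that last difference without a call, at 0.16 to 0.20 with adjusted p between 0.0611 and 0.114.

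Suz12, the scaffold, was the member that was not lower in dKO than in WT. Its level was 779, 715 and 789 CPM in rescue, 485, 509 and 649 CPM in dKO, and 455, 442 and 478 CPM in WT. The groups were ordered rescue, dKO, WT with no overlap, but dKO replicates 1 and 2 lay close to WT while replicate 3 lay nearer to rescue. Suz12 rose in dKO against WT by 0.26 (SE 0.0941, 95% interval 0.05 to 0.46, edgeR adjusted p = 0.0301). Without dKO replicate 3 that difference was 0.12 (adjusted p = 0.0699), without WT replicate 1 it was 0.25 (adjusted p = 0.0806), and without WT replicate 2 it was 0.23 (adjusted p = 0.103), so 1 library decides the call. The rise in rescue was 0.73 against WT (SE 0.0943, adjusted p = 5.83e-05) and 0.47 against dKO (SE 0.0939, adjusted p = 0.000702). The spread of Suz12 among dKO libraries was an SD of 0.22 in log2 CPM, against a median of 0.095 over 559 genes of like level, of which 12.5% spread more.

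Rbbp4 and Rbbp7, the histone-binding pair, were both lowest in dKO, with the larger difference in Rbbp7. Rbbp4 measured 817, 803 and 752 CPM in rescue, 663, 639 and 670 CPM in dKO, and 821, 847 and 872 CPM in WT. Its dKO libraries lay below all others, and its rescue libraries lay just below those of WT. Rbbp4 fell in dKO against WT by 0.37 (SE 0.0524, edgeR adjusted p = 6.77e-05) and rose by 0.27 in rescue against dKO (SE 0.0523, adjusted p = 0.000642). In rescue against WT its log2 difference was -0.10 (95% interval -0.21 to 0.02, adjusted p = 0.132), which did not pass the test. Rbbp7 was at 415, 437 and 399 CPM in rescue, 233, 231 and 284 CPM in dKO, and 509, 526 and 537 CPM in WT. Its 3 groups were fully separated, with rescue between dKO and WT. Rbbp7 fell by 1.07 in dKO against WT (SE 0.0784, adjusted p = 2.55e-07), a level 52.4% lower, and by 0.33 in rescue against WT (SE 0.0773, adjusted p = 0.0035). Against dKO it rose by 0.74 in rescue (SE 0.078, adjusted p = 4.38e-06).

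**Figure D2:**
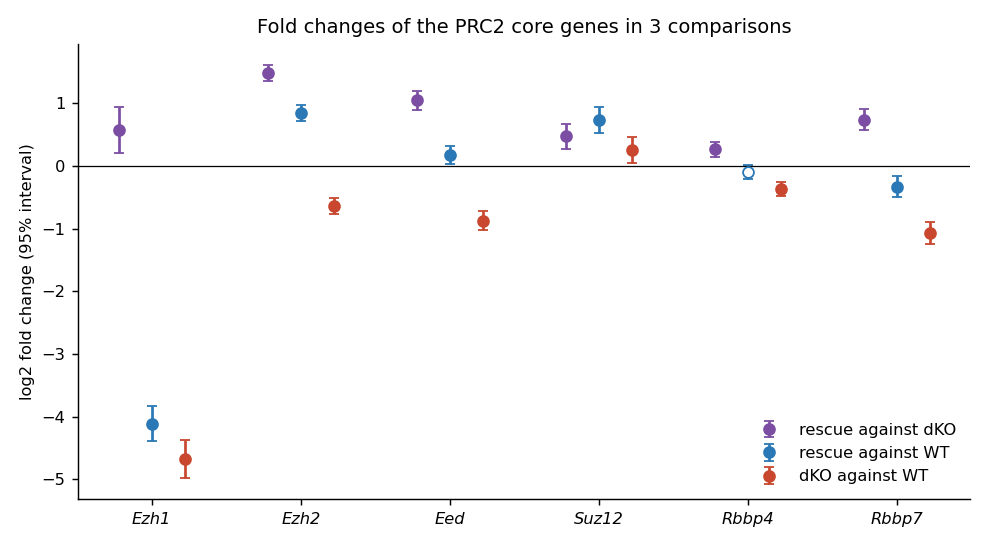
Log2 fold change of each gene with its 95% interval in rescue against dKO, rescue against WT and dKO against WT, from left to right within a gene; filled points passed an adjusted p of 0.05 and the open point, Rbbp4 in rescue against WT, did not. In dKO against WT every gene but Suz12 lies below 0, and in rescue against dKO all 6 lie above 0.

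Counted together, 6 of 6 members were called in dKO against WT, 1 higher and 5 lower, where 64.7% of all tested genes were called, 33.7% higher and 31.0% lower. In rescue against WT 5 of 6 were called, 3 higher and 2 lower, where the background was 54.1%, with 26.8% higher and 27.3% lower. In rescue against dKO 6 of 6 were called, all higher, where the background was 70.3%, with 32.1% higher and 38.2% lower. With most genes called in each comparison, a called member is near what any gene gives, and the sizes carry more than the calls. The share of tested genes with a larger change in dKO against WT was 1.01% for Ezh1, 22.6% for Rbbp7, 26.9% for Eed, 35.3% for Ezh2, 53.7% for Rbbp4 and 65.3% for Suz12. The median of the 6 log2 fold changes was -0.76 in dKO against WT, 0.04 in rescue against WT and 0.66 in rescue against dKO, beside -0.00, 0.00 and -0.04 over all tested genes. The counts and medians include Ezh1 and Ezh2, named by the labels as lost in dKO, and Ezh2 is named as put back in rescue. Eed, Suz12, Rbbp4 and Rbbp7 were at -0.87, 0.26, -0.37 and -1.07 in dKO against WT. They were at 0.18, 0.73, -0.10 and -0.33 in rescue against WT, and 1.05, 0.47, 0.27 and 0.74 in rescue against dKO. Libraries of the compared groups did not overlap for 6 members in dKO against WT, 6 in rescue against WT and 5 in rescue against dKO, beside 68.0%, 65.3% and 71.7% of tested genes. These comparisons share libraries, so their values are given side by side and are not independent. Scaling by total counts alone moved the median of all genes to 0.13 in dKO against WT and -0.18 in rescue against dKO. The split of called genes was then 5841 higher and 2984 lower, in place of 4769 and 4382, in dKO against WT, and 3342 higher and 6381 lower, in place of 4534 and 5407, in rescue against dKO. The direction of each member was the same under that scaling, with medians of -0.62 and 0.52. The members' median in rescue against WT was 0.02 without rescue replicate 2 and 0.06 without rescue replicate 3.

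Ratios of counts within a library do not depend on how libraries are scaled to each other, and were set out for 5 pairs of members. They compare groups, and do not give relative amounts of the genes, since transcript lengths differ. Among the subunits that form the catalytic core, the log2 ratio of Ezh2 to Suz12 was -0.49, -0.31 and -0.52 in rescue, -1.34, -1.42 and -1.60 in dKO, and -0.57, -0.50 and -0.63 in WT. Rescue and WT overlapped, with a difference of 0.12 (exact permutation p = 0.2), whereas dKO lay below both. The log2 ratio of Eed to Suz12 averaged -1.49 ± 0.117 in rescue, -2.06 ± 0.140 in dKO and -0.94 ± 0.102 in WT (SD, n = 3), so in rescue it lay between the other groups. The ratio of Ezh2 to Eed on the same scale was 1.06, 1.04 and 1.04 in rescue, 0.57, 0.67 and 0.58 in dKO, and 0.36, 0.35 and 0.42 in WT. It was highest in rescue, where the 3 libraries agreed to an SD of 0.010, and higher in dKO than in WT, where Ezh2 and Eed had both fallen but Eed further.

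For the Rbbp pair the log2 ratio of Rbbp7 to Rbbp4 was -0.98, -0.88 and -0.91 in rescue, -1.51, -1.47 and -1.24 in dKO, and -0.69, -0.69 and -0.70 in WT. The WT libraries agreed to an SD of 0.0066, and no group overlapped another. For the 2 catalytic subunits the log2 ratio of Ezh1 to Ezh2 averaged -7.62 ± 0.310 in rescue, -6.65 ± 0.272 in dKO and -2.64 ± 0.0966 in WT (SD, n = 3). Of 15 such comparisons, 14 had no overlap between groups, each with an exact two-sided permutation p of 0.1, which is the smallest that 3 against 3 libraries allow, and 0.107 after adjustment over the 15. No ratio could therefore pass 0.05.

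**Figure D3:**
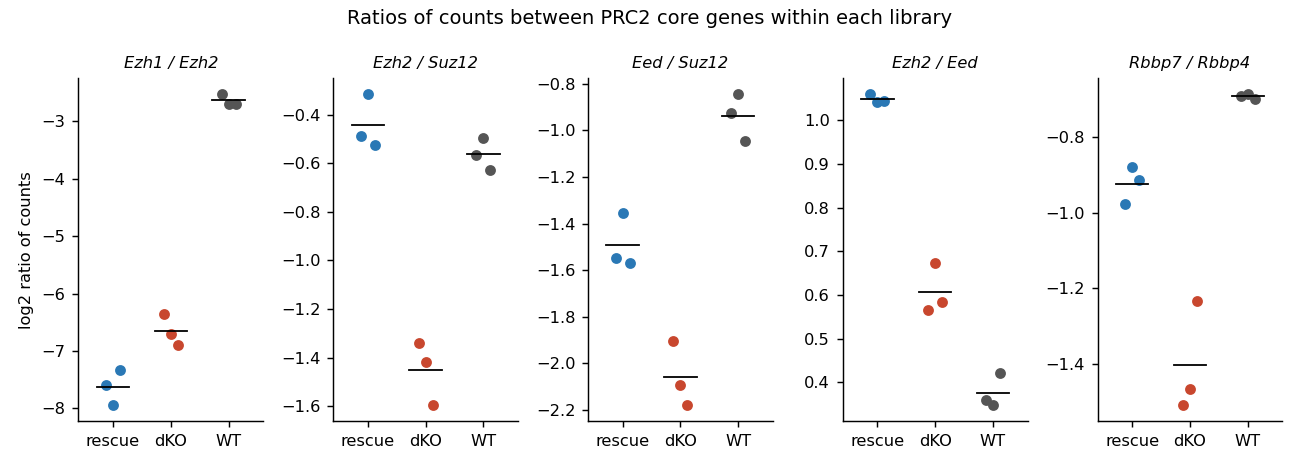
Log2 ratio of counts between 2 members in each library, for 5 pairs, with rescue, dKO and WT from left to right and a line at each group mean; each panel has its own axis, which does not start at 0. Only for Ezh2 over Suz12 do rescue and WT overlap, and the Rbbp7 over Rbbp4 points of WT lie almost on each other.

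Chromosomal neighbours were read beside each member, as all other tested genes whose midpoint lies within 1 Mb. Ezh1 stood apart from its 65 neighbours in dKO against WT (neighbour median 0.10, lowest -1.37) and in rescue against WT (median 0.03, lowest -2.35). Ezh2 changed more, in its own direction, than each of its 15 neighbours in all 3 comparisons. The neighbour medians were 0.15 in dKO against WT, 0.12 in rescue against WT and -0.17 in rescue against dKO. The nearest of them is Cul1, the cullin scaffold of SCF ubiquitin ligases, which fell in dKO against WT by 0.29 (edgeR adjusted p = 0.00543). Cul1 rose by 0.19 in rescue against WT (adjusted p = 0.0495) and by 0.48 in rescue against dKO (adjusted p = 0.000125). Within 5 Mb, of 58 genes, 4 in dKO against WT, 10 in rescue against WT and 1 in rescue against dKO changed more than Ezh2 in its direction.

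Rbbp7, on the X chromosome, fell in dKO cells along with its neighbours. All 5 tested genes within 1 Mb fell in dKO against WT, with a median of -0.90, beside -1.07 for Rbbp7 and -0.09 for the other 520 tested genes of the chromosome. They are Txlng (-0.77), Syap1 (-0.54), Ctps2 (-0.90), Reps2 (-1.12) and Nhs (-3.88), where Ctps2 is a CTP synthase. Of the 5, 4 fell in rescue against WT, with a median of -0.76 against -0.33 for Rbbp7, which was less lowered than each of those 4. Over all tested genes 31.0% fell in dKO against WT and 27.3% in rescue against WT. The neighbour median in rescue against dKO was 0.19 against 0.74 for Rbbp7. The window of 5 Mb gave 36 genes and medians of -0.28 in dKO against WT and -0.05 in rescue against WT. Whether Rbbp7 and these genes changed together for a shared reason was not tested.

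In dKO against WT 31.0% of all tested genes were called lower and 33.7% higher. Around Eed the 9 neighbours had a median of -0.32 in dKO against WT, with 5 called lower and 1, Fzd4 at 1.01, called higher. Eed, at -0.87, was the most lowered of the 10. The nearest, l7Rn6, fell by 0.52 (edgeR adjusted p = 2.7e-05). Their median in rescue against dKO was 0.29 beside 1.05 for Eed. The 18 neighbours of Suz12 had a median of -0.14 in dKO against WT, 7 called lower and 4 higher, where Suz12 was higher. Among them Crlf3 fell by 0.92 (adjusted p = 7.4e-06) and Atad5, which unloads the replication clamp, by 0.75 (adjusted p = 1.18e-06), while Utp6 had a log2 difference of 0.01 (adjusted p = 0.939). Rbbp4 was at -0.37 beside a median of 0.16 over 39 neighbours. With a 5 Mb window the median beside Suz12 was 0.11 and that beside Ezh2 was 0.65 in dKO against WT.

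**Figure D4:**
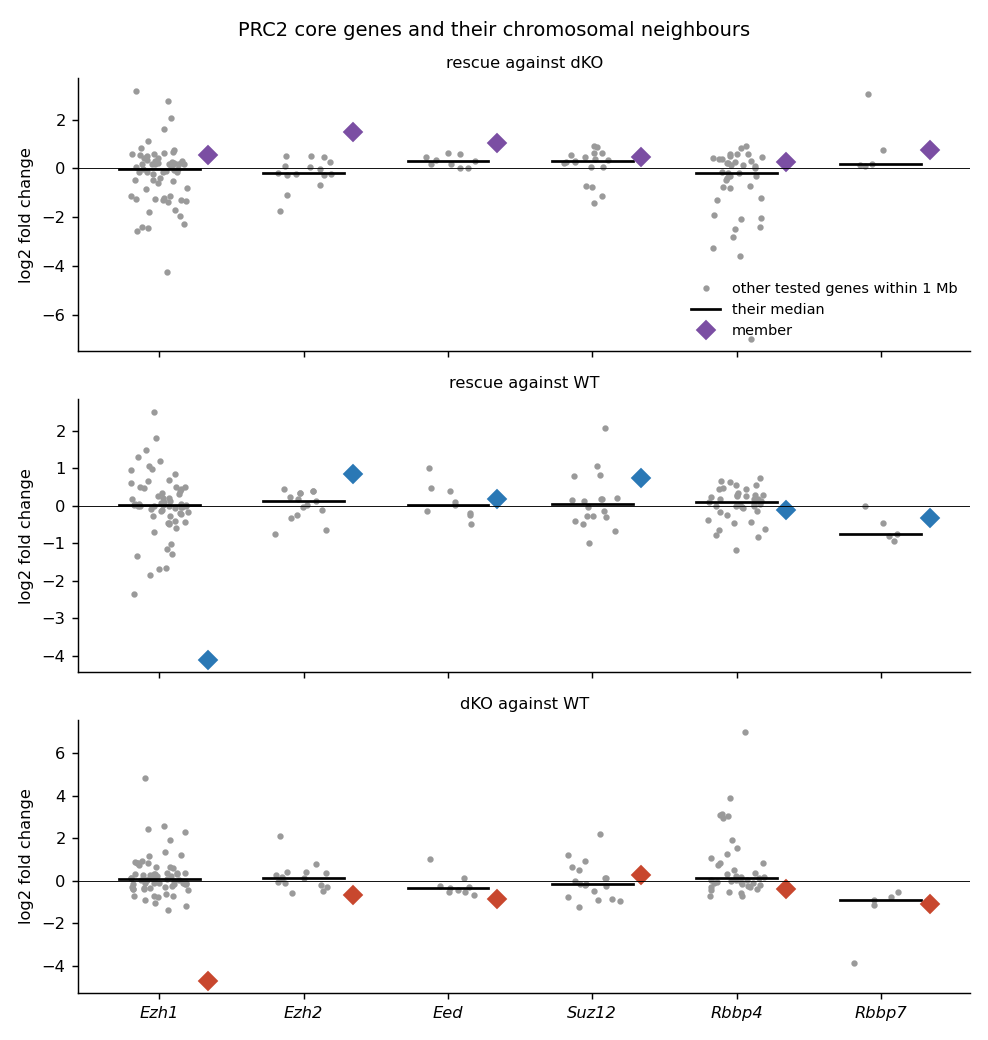
Log2 fold change of each member (diamond) beside the other tested genes within 1 Mb (grey points, black line at their median), in rescue against dKO, rescue against WT and dKO against WT from top to bottom. Ezh1 and Ezh2 lie below all their neighbours in dKO against WT, and the 5 neighbours of Rbbp7 all lie below 0 with it.

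Some members share bases with another gene in the GRCm38.p6 annotation, and without strand in the library kit reads from shared bases cannot be assigned. Rbbp4 overlaps Sync, a muscle intermediate filament gene, by 2284 bases. Sync averaged 14.7 CPM in dKO and 3.91 CPM in WT, small beside Rbbp4, and rose by 1.92 (edgeR adjusted p = 8.96e-08) where Rbbp4 fell. Rbbp7 overlaps Txlng by 174 bases, and Txlng averaged 18.5 CPM in dKO and 31.5 CPM in WT. Ezh2 overlaps the long noncoding RNA F830010H11Rik, which is not analysed here, by 62 bases.

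The genes of the complex were also read against a list of 7480 peaks of Suz12 itself, from chromatin immunoprecipitation of 129B6F1 cells labelled Suz12 WT, 1 sample with no replicate in the list. None of the 6 members had a peak in the gene or within 1 kb or 5 kb of either end, where 30.4%, 31.5% and 34.9% of 14101 tested and placed genes did. The nearest peak was 16.4 kb from Ezh1, 19.1 kb from Rbbp4, 55.0 kb from Suz12, 56.3 kb from Ezh2, 116 kb from Rbbp7 and 321 kb from Eed. The strain differs from that of the RNA libraries, and a peak list shows only regions past the threshold of its caller.

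The 9 accessory subunits of PRC2, which steer the complex to chromatin and modulate it, were called in both directions. In dKO against WT 3 rose, 2 fell and 4 did not pass the test, where 33.7% of all tested genes rose and 31.0% fell. AU022751, the mouse counterpart of human EZHIP that inhibits the enzyme, averaged 28.7 CPM in dKO and 1.36 CPM in WT and rose by 4.38 (edgeR adjusted p = 8.3e-10). The Polycomb-like protein Phf19 rose by 0.73, and Jarid2, a DNA-binding partner of PRC2, by 0.26. Mtf2, another Polycomb-like protein, fell by 0.79 and Lcorl by 0.66. The log2 differences of Phf1, Epop, Lcor and Aebp2, at 0.32, 0.23, 0.41 and -0.15, did not pass. Without dKO replicate 1 the number that rose was 5.

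Among the accessory genes 4 rose in rescue against WT, Lcor by 0.82, Epop by 0.68, Phf1 by 0.59 and Jarid2 by 0.25. Phf19 fell by 0.87 and Lcorl by 0.70, while Aebp2, Mtf2 and AU022751 were at -0.07, -0.01 and -0.11 and did not pass. Between rescue and dKO, Mtf2 rose by 0.78 and Epop by 0.45, AU022751 fell by 4.50 and Phf19 by 1.60, and the other 5 did not pass. The count of 2 that rose became 1 without dKO replicate 1, dKO replicate 2, rescue replicate 1 or rescue replicate 3. It was also 1 with total-count scaling and with no filter on low counts, and 3 without dKO replicate 3. Over all tested genes 26.8% rose and 27.3% fell in rescue against WT, and 32.1% and 38.2% in rescue against dKO. The accessory medians were 0.26, -0.01 and 0.08 in dKO against WT, rescue against WT and rescue against dKO. The median in rescue against dKO was -0.06 with total-count scaling, and that in rescue against WT was 0.00 with the size factors of DESeq2, so neither has a settled sign. The median in dKO against WT was 0.10 without dKO replicate 3 and 0.40 with total-count scaling. Leaving out 1 library moved the median in rescue against WT between -0.06 and 0.07, and that in rescue against dKO was 0.01 without dKO replicate 1, 0.02 without dKO replicate 2 and 0.22 without dKO replicate 3.

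The Rbbp proteins also serve other complexes. Counts for their lists, and for the replication list below, stand beside the shares of all tested genes called. These were 33.7% higher and 31.0% lower in dKO against WT, and 26.8% and 27.3% in rescue against WT. In rescue against dKO they were 32.1% and 38.2%. Of 22 NuRD and Sin3 deacetylase genes 16 fell in dKO against WT, 1 rose and 5 did not pass, where the median was -0.29. Arid4a fell by 1.18 and Sap30 by 0.87, both Sin3 subunits, and the methyl-CpG binding protein Mbd2 rose by 0.51. With total-count scaling 10 fell and the median was -0.16, and the number that rose was 2 without dKO replicate 1. For rescue against WT the counts were 7 that rose, 6 that fell and 9 that did not pass (median 0.04, or 0.09 without rescue replicate 3 and 0.08 without WT replicate 3). Brms1 rose by 0.71 and Gatad2a by 0.41, and Mta3 fell by 1.33 and the remodelling ATPase Chd3 by 1.23. For rescue against dKO 15 rose and 5 fell, 2 were not called, and the median was 0.42. Arid4a rose by 1.56 and Sap30 by 0.91, and Mta3 fell by 1.06 and Mbd2 by 0.90.

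Of 11 genes of CAF-1, Hat1, NURF and MuvB, 6 fell in dKO against WT and 5 were not called (median -0.22, or -0.09 with total-count scaling). The ISWI ATPases Smarca1 and Smarca5 fell by 1.22 and 0.89. Rescue against WT gave 6 that rose, 2 that fell and 3 not called (median 0.15). Lin37 rose by 0.60 and Lin52 by 0.46, both MuvB subunits, and Hat1 fell by 0.63 and Mybl2 by 0.26. The number that rose was 3 and the median 0.25 without WT replicate 3, and the number that fell was 1 without rescue replicate 2, WT replicate 1 or WT replicate 3. Rescue against dKO gave 10 that rose, with Smarca1 at 1.38 and Smarca5 at 0.72 and a median of 0.40, or 0.26 with total-count scaling. Hat1 fell by 0.18 there. That call was lost without dKO replicate 3, rescue replicate 2 or rescue replicate 3, with DESeq2, with its size factors in edgeR, with no filter on low counts and with only these 2 groups in the fit.

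The list of 24 replication and mitosis genes was read because Ezh2 and the Rbbp genes are known to be transcribed with the cell cycle. Of these, 15 fell and 3 rose in dKO against WT, and 6 were not called (median -0.25). Mcm3 and Mcm2, subunits of the replicative helicase, fell by 0.64 and 0.56, and the mitotic genes Mki67 and Plk1 rose by 0.55 and 0.20. In rescue against WT 9 fell and 3 rose, and 12 were not called (median -0.06). Cyclin A2 (Ccna2) fell by 0.69 and Cdk1 by 0.31, and Ccne2 and the origin-licensing factor Cdc6 rose by 0.90 and 0.46. In rescue against dKO 11 rose and 4 fell, and 9 were not called (median 0.15). Cdc6 rose by 0.74 and Ccne2 by 0.73, and Mki67 fell by 0.72 and Ccna2 by 0.57. The number that rose was 5 without dKO replicate 1 in dKO against WT and 5 without dKO replicate 3 in rescue against WT, where the number that fell was 5 without WT replicate 2. With total-count scaling 5 rose in dKO against WT, where the median was -0.11, and 7 fell in rescue against dKO, where it was 0.01. The median in rescue against dKO was 0.10 without dKO replicate 1, 0.09 without dKO replicate 2 and 0.25 without dKO replicate 3, and 0.10 over genes of at least 2 CPM. That in rescue against WT was -0.10 without WT replicate 2.

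**Figure D5:**
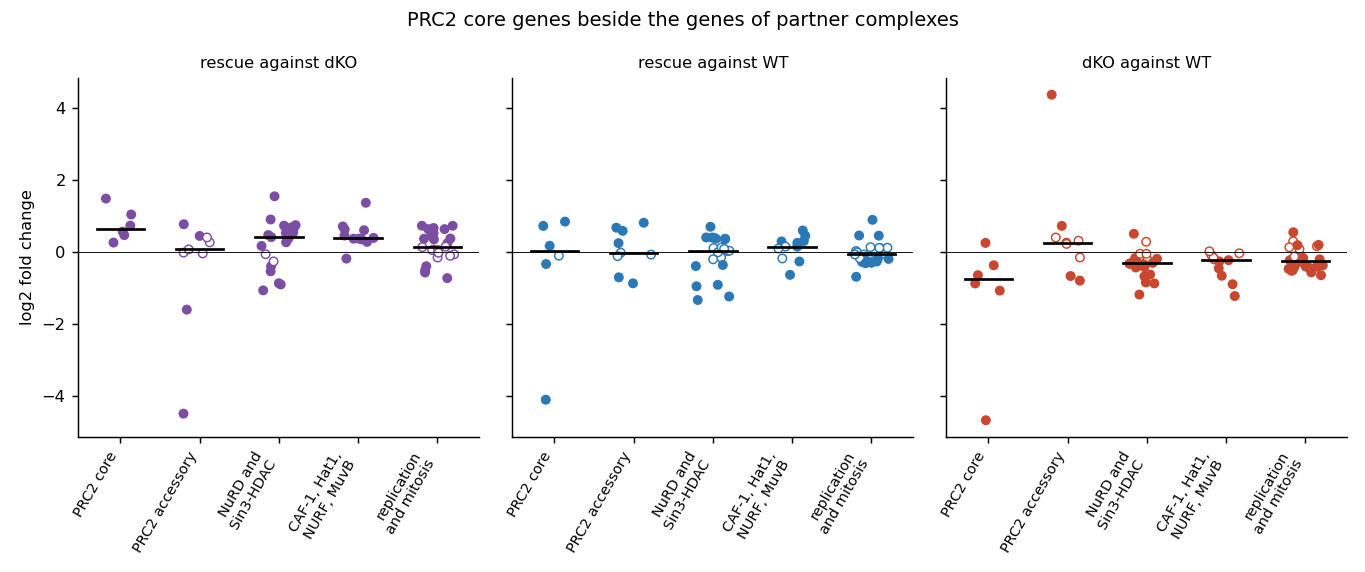
Log2 fold change of the genes of each list (points, filled where the adjusted p was under 0.05, black line at the median) in rescue against dKO, rescue against WT and dKO against WT from left to right. The core genes have the lowest median of the 5 lists in dKO against WT and the highest in rescue against dKO. The core list includes Ezh1 and Ezh2, which the labels name as lost in dKO, and Ezh2 is named as put back in rescue.

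In sum, markers of other cell types were higher in dKO than in WT or rescue, though not every gene was. Summed levels of the 8 primitive endoderm markers were 33.8 to 38.5 CPM in rescue, 168 to 181 CPM in dKO and 15.6 to 18.6 CPM in WT. The 10 fibroblast markers summed to 14.7 to 15.6 CPM in rescue, 58.8 to 64.7 CPM in dKO and 6.70 to 8.39 CPM in WT, with Col3a1, S100a4 and Lum at 0 in every dKO library. For 7 trophoblast markers the sums were 152 to 159 CPM in rescue, 235 to 247 CPM in dKO and 183 to 197 CPM in WT, and for 6 cardiac mesoderm markers 1.69 to 2.15 CPM in rescue, 15.5 to 17.3 CPM in dKO and 1.10 to 1.82 CPM in WT. No marker of the endoderm, trophoblast and cardiac lists was at 0 throughout dKO. Col4a1 alone averaged 120 CPM in dKO, and all 6 tested endoderm markers rose in dKO against WT. Of the trophoblast markers 5 rose, Eomes fell by 0.24, and Tfap2c, at 159 CPM in dKO and 167 CPM in WT, was not called. In rescue against WT 4 trophoblast markers rose, among them Eomes by 1.63, and 2 were not called. Tfap2c fell by 0.94 there, to 87.1 CPM, where 26.8% of all tested genes rose and 27.3% fell. Between rescue and dKO 1 rose, Eomes by 1.87, and 5 fell, beside 32.1% and 38.2% of all tested genes. Of 4 tested cardiac markers 3 rose in dKO against WT, and Tnnt2, at -0.39, was not called. Over all tested genes 33.7% rose and 31.0% fell in dKO against WT. Of the 12 ES cell markers 8 fell in dKO against WT, with Dppa5a by 0.67 and Sall4 by 0.59 the largest falls, 2 rose, Prdm14 by 0.66 and Klf4 by 0.15, and 2 were not called. In rescue against WT 9 of the 12 ES cell markers rose, Sox2 fell by 0.66, and 2 were not called. Over all tested genes 26.8% rose and 27.3% fell in that comparison. The part of these differences in the levels of the PRC2 genes was not tested.

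To show what else followed each member over the 9 libraries, its log2 profile, centred on its own mean, was set against 8969 genes of at least 10 CPM by root mean square distance. The profile of Ezh2 lay closest to Nodal, a secreted ligand of the TGF-beta family (distance 0.039), Zfp408 (0.054) and the H3K9 demethylase Kdm3a (0.056), where the median gene was at 0.61. Nodal averaged 187 CPM in rescue, 65.9 CPM in dKO and 104 CPM in WT. Eed was closest to Msl2 (0.056), Tgif1 (0.058) and Rpe (0.065), and Suz12 to Spata2 (0.062), Fbxo46 (0.065) and Slc35a4 (0.069). Rbbp4 was closest to Got1 (0.040), Bax (0.040) and Cars (0.041), and Rbbp7 to Cat (0.071), Impact (0.081) and Hmgxb4 (0.087). Ezh1, labelled as knocked out in dKO, had no close match, with Frem2 nearest at 0.74. Among the members themselves the closest pair was Eed and Rbbp7, at 0.22, followed by Ezh2 and Eed at 0.28, each farther than the nearest other genes. The median gene was at 0.46 from Eed and 0.46 from Rbbp7. Suz12 lay 0.37 from Rbbp4, its nearest fellow member, and 0.58 from Rbbp7. The median gene was at 0.39 from Suz12 and 0.25 from Rbbp4.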

How the data were processed

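Polyadenylated RNA of 9 libraries was analysed, 3 per group as labelled, with 1 of the 62 chromatin immunoprecipitation samples. The other 61 were not used here, among them 2 whose title and antibody label disagree. The authors deposited unnormalized counts of reads per gene symbol, made with Trimmomatic, STAR 2.4.0 and HTSeq on mm10 per the submitters' processing notes. The library kit, TruSeq RNA Library Prep Kit v2 per the labels' protocols, does not mark strand. Not given in the sources used here are the counting mode, strand setting, gene annotation, peak caller and its threshold. The deposited peak file holds other values, namely coordinates only, with no score.

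Total counts ran from 12457622 to 36009529 per library. A count of 0 would allow 0.0833 to 0.241 CPM, taking 3 counts as the limit, for counting error only; every member was above it in every library. Replicates differed by more than sampling noise, which does not show whether they are separate cultures. Each library counted as its own replicate.

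Tests used edgeR 4.0.16 in R 4.3.3 (TMM, filterByExpr, robust glmQLFit, glmQLFTest) in 1 fit of 9 libraries with 6 residual degrees of freedom, two-sided, with Benjamini-Hochberg adjustment over 14145 genes and a threshold of 0.05. "Rose" and "fell" are used only of called genes. The edgeR steps were tested on simulated counts, for dKO against WT only and with far fewer changed genes than were called here. The other steps were not tested in that way. DESeq2 1.42.0 was an alternative, among 17 settings per member. Ratios were tested by exact permutation. Genes were placed with a RefSeq table of GRCm38.p6, which held 22858 under their symbol and 1230 under a synonym and left 134 unplaced. Epop is named E130012A19Rik in the tables. Promoters are from RefSeq, and a peak counted with an overlap of at least 1 base.

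Named genes are the 6 members, all accessory subunits, the 2 called genes with the largest change each way of every other list and comparison, the 3 genes of nearest profile (predicted-gene identifiers left out) and genes that overlap a member. The chromosomal neighbours, and all markers of the cell type lists that are named, were picked outside these rules after their values were seen. The members, lists and alternatives were chosen with earlier results of these data known.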

Additional observations from a re-analysis of the deposited data

How the results depend on the processing

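Of the 17 alternatives for each member, none turned a direction. The calls that were lost are those of Suz12 in dKO against WT and of Eed in rescue against WT. Suz12 was at 0.26 with edgeR adjusted p = 0.0534 when only these 2 groups entered the fit, and ranged over 0.12 to 0.34 with 1 library left out. Eed was at 0.15 with adjusted p = 0.0575 without genes of chromosomes 3 and 14, and ranged over 0.16 to 0.20 with 1 library left out. Correlations of same-numbered deviations ran from -0.20 to 0.33, with 2 of 9 over 0.1, and not every library correlated best with its own number. Deviations from a mean of 3 libraries are tied to each other, so this check cannot decide whether replicate numbers pair the libraries. The main fit had no block. With the replicate number as a block Eed in rescue against WT was at 0.18 with adjusted p = 0.0564, and 6, 4 and 6 members were called in dKO against WT, rescue against WT and rescue against dKO. The cause of these losses was not tested. Rbbp4 in rescue against WT did not pass under any of the 17, at -0.13 to -0.06 with adjusted p from 0.051 to 0.41.

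Levels of the members relative to each other, per length, were not run, since no transcript or protein lengths were at hand. Depth sets the precision of Ezh1 in dKO and rescue, where 31 to 101 counts stand behind each value, more than that of the other members, which had 1720 counts or more in each library.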
